A study of Mus musculus with 30 samples.

Results

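Gene expression in mouse olfactory epithelium was compared between 48 h and 16 h after bilateral olfactory bulbectomy, the removal of both olfactory bulbs, in the arrays labelled wild type. The comparison held 6 of the 30 arrays of the series, taken by their titles, with 3 arrays at each time. The labels give wild-type mice and SR-A mutant mice aged 6 weeks, at 0, 2, 8, 16 and 48 h with 3 arrays for each label and time. Msr1 encodes SR-A, a scavenger receptor of macrophages, and the labels do not describe its mutant allele. The tissue was microdissected and its total RNA was hybridised to Affymetrix arrays, which report 1 MAS5 signal for each probe set. Nothing in the labels ties each array to its own mouse, so every p below rests on the spread among arrays, some of which may be technical.

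Olfactory sensory neurons send their axons to the olfactory bulb, and those that have matured degenerate when the bulb is removed. Inflammatory cells then enter the tissue and basal progenitors later replace the lost neurons. The epithelium rests on a lamina propria of connective tissue, glands, vessels, nerve bundles and resident immune cells, and turbinate bone lies below it. A piece of dissected tissue can hold all of these. In bulk tissue, fewer cells of a type and less RNA per cell cannot be told apart.

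All 6 arrays were scaled alike, with a 2% trimmed mean signal of 1499.8. Their Gapdh control probe sets differed between the 3' and 5' ends by -0.14, -0.20 and -0.15 on the log2 scale at 16 h. At 48 h the differences were -0.26, -0.22 and -0.21. The actin probe sets differed by 0.70, 0.75 and 0.80 at 16 h and by 0.89, 0.75 and 0.87 at 48 h. Msr1 did not check the genotype labels. Its brighter probe set, too dim to be tested, gave 143.0, 32.6 and 204.0 at 16 h and 169.1, 295.1 and 230.6 at 48 h. In the mutant-labelled arrays the same probe set gave 427.6, 444.5 and 373.5 at 16 h and 469.7, 440.9 and 297.5 at 48 h, all above the wild-type-labelled ones. For that reason the text speaks of wild-type-labelled and of mutant-labelled arrays. How the mutant allele bears on the stretch these probes read is not known here.

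Changes are log2 differences of group means, 48 h minus 16 h, ± their standard error, from 3 arrays at each time. Signals under a floor of 113.7 were raised to it first. A p is from limma, adjusted by the Benjamini-Hochberg method over the 6950 probe sets tested, and a gene is said to rise or fall only where that p is under 0.05. Of 5383 genes tested, each by its brightest probe set, 253 changed, 4.70% of them, and 1050 had an unadjusted p under 0.05. The 117 that rose made up 2.17% and the 136 that fell 2.53%. The counts on gene lists below are to be read beside these shares. The median change was 0.00 over all genes, 0.63 over those that rose and -0.64 over those that fell. Counted by probe set, 325 of 6950 changed, 4.68%, with 159 higher (2.29%) and 166 lower (2.39%). A rise of at least 1 was seen in 30 genes and a fall of at least that size in 29.

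The 3 arrays at 16 h and the 3 at 48 h did not overlap in 249 of the 253 genes, against 27.3% of all genes tested (13.4% higher and 14.0% lower). The calls came from the same arrays, so most of this separation follows from the choice of genes. Past the threshold in each of the 6 fits that left out 1 of these arrays were 25 of the genes that rose and 31 of those that fell. The array whose absence cost most calls was 48 h replicate 1. Without it 89 probe sets were called where the full fit called 325, and without 16 h replicate 1 or replicate 3 there were 147 and 144. Another fit used only these 6 arrays and called 48 probe sets. In that fit 18 of the 81 changed genes named by rule still passed, among them Cxcl2, Il6, Saa3, Mmp3, Cxcl1, Orm1, Il1rn, Kng1, Col1a1, Col1a2, Sparc, Car3 and Epha7.

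Inflammatory ligands and secreted defence proteins led the rises. Cxcl2, Il6, Saa3, Mmp3 and Cxcl1 had the 5 largest changes of those past the threshold in all 6 leave-one-out fits and with no overlap between the times. Their RefSeq promoters, from 250 bases before to 50 bases after the transcription start in GRCm38.p6, are shown for that rank. The choice by size of rise fixes that all 5 rose. Control of these genes by the factors whose motifs are marked was not tested. Sequences run 5′ to 3′ along the gene's strand, and capitals mark matches on either strand to 3 motifs, the NF-kappaB consensus, TTGCNNAA of C/EBP factors and TGANTCA of AP-1. They lie at chr5:90903649-90903948 on the plus strand for Cxcl2, chr5:30012864-30013163 on the plus strand for Il6, chr7:46715627-46715926 on the minus strand for Saa3, chr9:7445572-7445871 on the plus strand for Mmp3, and chr5:90890995-90891294 on the plus strand for Cxcl1.
Cxcl2: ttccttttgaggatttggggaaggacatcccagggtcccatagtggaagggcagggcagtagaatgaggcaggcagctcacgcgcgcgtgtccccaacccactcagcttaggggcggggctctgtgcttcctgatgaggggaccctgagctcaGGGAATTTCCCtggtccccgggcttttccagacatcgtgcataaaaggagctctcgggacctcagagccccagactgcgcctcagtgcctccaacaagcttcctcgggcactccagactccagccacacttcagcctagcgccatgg
Il6: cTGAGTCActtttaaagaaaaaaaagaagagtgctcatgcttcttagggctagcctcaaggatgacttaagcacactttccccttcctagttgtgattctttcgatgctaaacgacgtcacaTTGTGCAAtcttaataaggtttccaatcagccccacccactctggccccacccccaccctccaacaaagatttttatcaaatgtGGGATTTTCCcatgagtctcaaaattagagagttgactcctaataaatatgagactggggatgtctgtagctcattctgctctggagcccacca
Saa3: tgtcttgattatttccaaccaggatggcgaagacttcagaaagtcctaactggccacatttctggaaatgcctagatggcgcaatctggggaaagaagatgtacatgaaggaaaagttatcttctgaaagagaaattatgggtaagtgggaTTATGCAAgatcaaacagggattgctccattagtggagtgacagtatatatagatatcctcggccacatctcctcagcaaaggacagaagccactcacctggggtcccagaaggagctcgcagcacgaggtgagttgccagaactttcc
Mmp3: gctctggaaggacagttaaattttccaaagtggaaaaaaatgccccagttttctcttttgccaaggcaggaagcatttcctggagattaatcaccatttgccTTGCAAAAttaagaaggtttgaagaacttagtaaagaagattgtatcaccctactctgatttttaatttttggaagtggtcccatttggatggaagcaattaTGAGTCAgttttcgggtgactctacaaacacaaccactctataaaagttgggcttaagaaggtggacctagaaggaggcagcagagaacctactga
Cxcl1: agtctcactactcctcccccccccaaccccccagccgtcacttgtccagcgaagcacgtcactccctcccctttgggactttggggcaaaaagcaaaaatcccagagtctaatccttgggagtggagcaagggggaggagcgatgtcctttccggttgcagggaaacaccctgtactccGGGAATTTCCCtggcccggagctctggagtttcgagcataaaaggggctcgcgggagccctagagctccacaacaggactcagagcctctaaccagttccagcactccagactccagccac

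The Cxcl2 and Cxcl1 promoters each held a stretch that matched the NF-kappaB consensus at overlapping positions on both strands, starting 97 and 71 bases before the start. Il6 held all 3 motifs, Mmp3 the C/EBP and AP-1 letters, and Saa3 the C/EBP letters. The NF-kappaB consensus was found in 4.35% of 27025 promoters of this length, in 4.86% of the 4362 promoters matched to tested genes and in 6 of the 96 matched to genes that rose, 6.25%. For the C/EBP letters the shares were 10.8%, 8.21% and 15.6%, and for the AP-1 letters 7.93%, 5.32% and 13.5%. Among the 104 promoters matched to genes that fell they were 5.77%, 9.62% and 6.73% in that order of motifs. The shares among genes that rose rest on 15 promoters for the C/EBP letters and 13 for the AP-1 letters. The 13 include Sprr2b, Sprr2f and Sprr2i, members of a family of near-identical copies. Differences between these shares were not tested. A match to letters describes the sequence and does not show a bound site.

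Of 3 tested neutrophil-attracting chemokines 2 rose and 0 fell. Cxcl2 gave signals of 591.9, 181.2 and 47.6 at 16 h and 5200, 3463 and 7909 at 48 h. It was at least 22.7-fold higher (4.50 ± 0.47, limma adjusted p = 3.73e-06), a lower bound because 1 array at 16 h lay below the floor. Cxcl1, which like Cxcl2 binds the neutrophil receptor Cxcr2, gave 591.9, 395.2 and 308.9 at 16 h and 3542, 4771 and 2535 at 48 h. It rose by 3.07 ± 0.50 (limma adjusted p = 0.00111), and its other tested probe set rose by 3.68. Neither gene's arrays overlapped between the times. The third chemokine of the list that was tested, Cxcl5, ranged from 4387 to 12470 at 16 h and from 5884 to 10960 at 48 h, so its arrays overlapped (0.33 ± 0.51).

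Il6, the cytokine that signals through gp130 and STAT3 and drives the acute phase response, lay at or below the floor in all 3 arrays at 16 h, with 70.4, 107.3 and 99.7. At 48 h it gave 788.4, 1526 and 1754, at least 11.3-fold higher (3.50 ± 0.34, limma adjusted p = 2.04e-06). The 16 h arrays were also below those at 0 h and 8 h, since Il6 gave 576.8, 334.1 and 441.5 at 0 h and 467.5, 600.0 and 844.3 at 8 h. Socs3, a feedback inhibitor induced by STAT3, rose by 0.91 ± 0.24 (limma adjusted p = 0.0276), with 858.9, 945.9 and 1072 at 16 h against 2151, 1463 and 1855 at 48 h. It missed the threshold without 16 h replicate 1, 2 or 3 or 48 h replicate 1 or 3 (adjusted p from 0.0604 to 0.184). Of 10 genes tested on the IL6 family list these were the 2 that rose and none fell, with a list median of 0.29. Stat3 was at 0.25 by its brightest probe set without passing and at 0.42 by a dimmer one (limma adjusted p = 0.0447). A dimmer tested probe set of Socs3 was at 1.15 without passing (limma adjusted p = 0.0777). The receptor genes Osmr (1.05 ± 0.31, adjusted p = 0.0531 by limma) and Lifr (0.74 ± 0.28, adjusted p = 0.137 by limma) did not pass, and Il6st, which encodes gp130, was at -0.01 ± 0.11.

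On the interleukin 1 side the antagonist and the decoy receptor rose. Il1rn, whose product blocks the IL1 receptor, gave 234.2, 230.6 and 125.0 at 16 h and 760.7, 614.9 and 720.7 at 48 h, with no overlap (1.88 ± 0.25, limma adjusted p = 0.000102). Il1r2, the decoy receptor, went from 962.8, 746.3 and 372.8 to 2206, 1309 and 2347 (1.55 ± 0.44, limma adjusted p = 0.0434). Il1r2 missed the threshold without 16 h replicate 2 or 3 or 48 h replicate 1 or 3 (adjusted p from 0.0682 to 0.225). A dimmer tested probe set of Il1r2 was at 1.69 (limma adjusted p = 0.00359). The agonist Il1b gave 1049, 311.6 and 480.8 at 16 h and 1281, 1028 and 1970 at 48 h. Its times overlapped and it did not pass (1.35 ± 0.40, limma adjusted p = 0.0576). The other agonist, Il1a, was too dim to be tested in the main analysis, with 171.3, 119.6 and 81.5 at 16 h and 551.8, 336.3 and 480.8 at 48 h. Without the filter on dim probe sets its limma adjusted p was 4e-05, with a change of at least 3.37-fold. Of 6 genes tested on the interleukin 1 list 2 rose and 0 fell, with a median of 0.80.

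Of the CC chemokines, Ccl2, which attracts monocytes, gave 396.1, 367.5 and 334.7 at 16 h and 991.6, 853.7 and 926.3 at 48 h. The times did not overlap, but its change of 1.34 ± 0.40 missed the threshold (limma adjusted p = 0.0607). Ccl3, too dim for the main test, gave 149.1, 117.7 and 237.6 against 1063, 661.8 and 566.5. Without the filter its limma adjusted p was 0.00255 at a change of 2.19 ± 0.35. None of the 14 genes tested on the NF-kappaB and TNF list passed, with a median of 0.05, and 1 had an unadjusted limma p under 0.05.

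Of 10 tested genes of acute phase and antimicrobial proteins, secreted in inflammation, 3 rose and 0 fell. Saa3, a serum amyloid A made outside the liver, gave 743.1, 254.9 and 413.8 at 16 h and 5396, 5732 and 3575 at 48 h (3.49 ± 0.35, 11.2-fold, limma adjusted p = 2.07e-06). Orm1, alpha-1-acid glycoprotein, went from 678.6, 274.8 and 538.1 to 3025, 3043 and 2482 (2.61 ± 0.43, limma adjusted p = 0.00111). Slpi, a leukocyte protease inhibitor of mucosal surfaces, went from 3847, 4964 and 3568 to 11489, 8128 and 7669 (1.13 ± 0.16, limma adjusted p = 0.000243). In all 3 genes each array at 48 h lay above each array at 16 h. A second tested probe set of Slpi rose by 1.73. The changes of all 10 were positive, from 0.45 to 3.49 with a median of 0.77 against 0.00 over all genes. Among the 7 that did not, Lcn2, a siderophore-binding antimicrobial protein, gave 24385, 22677 and 20828 against 44402, 34958 and 38509 (0.79 ± 0.28, limma adjusted p = 0.113). Orm1 has close paralogues, which the probes may not separate.

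Clu, which encodes the extracellular chaperone clusterin, was among the brightest of the genes that rose. It gave 10064, 17649 and 14950 at 16 h and 38995, 31323 and 25032 at 48 h (1.18 ± 0.21, limma adjusted p = 0.00205), and its second probe set rose by 1.47. Kng1, which encodes kininogen, the precursor of bradykinin, went from 1182, 2224 and 1732 to 7740, 5641 and 4985 (1.86 ± 0.26, limma adjusted p = 0.00024). Spdef, a transcription factor of secretory epithelial cells, went from 769.8, 957.9 and 927.9 to 1943, 1859 and 1754 (1.07 ± 0.21, limma adjusted p = 0.00449). The times did not overlap in these genes. Spdef did not pass when the mutant-labelled 2 h arrays, which stand apart in RNA quality, were added to the fit (adjusted p = 0.173).

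**Figure D1:**
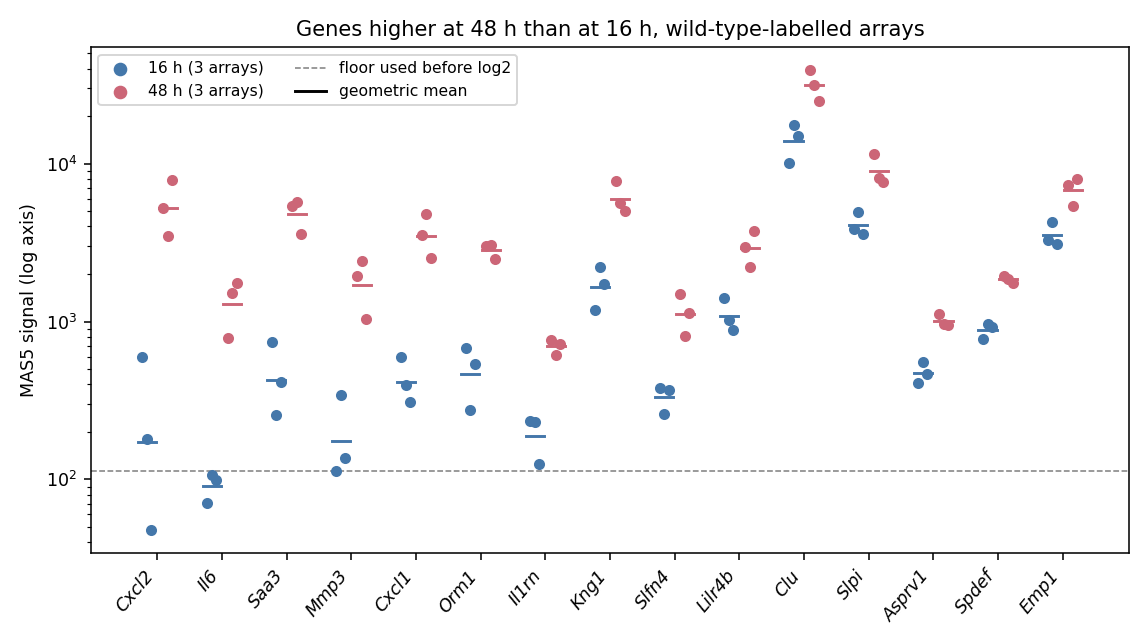
MAS5 signals (log axis) of the 15 genes with the largest rises among genes chosen for passing the threshold in all 6 leave-one-out fits and for having no overlap between the times, for each of the 3 wild-type-labelled arrays at 16 h and at 48 h. Bars are geometric means of the deposited signals and the dashed line is the floor of 113.7; the separation of the times follows from that choice, and the 3 Il6 points at 16 h lie below the floor.

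Myeloid genes were mixed. Of the calprotectin genes, abundant in neutrophils and also made by stressed epithelium, S100a8 went from 4877, 4428 and 4574 at 16 h to 17539, 10282 and 15394 at 48 h (1.60 ± 0.36, limma adjusted p = 0.0112). S100a9 went from 2884, 2634 and 3490 to 10568, 5662 and 11046 (1.55 ± 0.38, limma adjusted p = 0.0207). Chil3, a chitinase-like protein of myeloid cells with close paralogues, went from 589.9, 854.3 and 644.0 to 3190, 1901 and 2686 (1.88 ± 0.47, limma adjusted p = 0.0207). The arrays of these 3 genes did not overlap, and in each the lowest array at 48 h was replicate 2. S100a8 missed the threshold without 48 h replicate 1 (1.44, adjusted p = 0.0888). S100a9 did so without 16 h replicate 1 or 2 or 48 h replicate 1 or 3 (adjusted p from 0.0659 to 0.126) and Chil3 without 16 h replicate 1 or 3 or 48 h replicate 1 or 3 (adjusted p from 0.0529 to 0.124).

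Other neutrophil genes did not pass the test. Camp, which encodes cathelicidin, gave 1259, 1891 and 1811 at 16 h and 467.7, 569.9 and 666.7 at 48 h, lower in every array but not past the threshold (-1.53 ± 0.51, limma adjusted p = 0.089). Ngp, another granule gene, was at -0.89 ± 0.90 and the brightest probe set of Csf3r, the granulocyte colony stimulating factor receptor, at -0.03 ± 0.20, both with overlapping arrays. The 2 other Csf3r probe sets, too dim to be tested, were at 0.99 and 1.07. Of 9 genes tested on the neutrophil list 3 rose, 0 fell and the median was 0.18, and 0 rose without 48 h replicate 1 and 1 without 16 h replicate 1 or 48 h replicate 3. The summed signal of the 6 neutrophil markers was 11592 to 12313 at 16 h and 18218 to 31568 at 48 h, most of it S100a8 and S100a9. Mpo, the defining granule enzyme, gave 119.1, 102.5 and 133.7 at 16 h and 72.7, 105.4 and 101.0 at 48 h, at or near the floor.

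Among macrophage genes Cd68, a lysosomal membrane protein of phagocytes, rose. It gave 1044, 1515 and 1284 at 16 h and 2545, 1791 and 2517 at 48 h without overlap (0.83 ± 0.16, limma adjusted p = 0.00303). Abca1, a cholesterol exporter that macrophages raise when loaded with lipid, went from 2738, 2520 and 2712 to 5695, 4602 and 3612 (0.78 ± 0.11, limma adjusted p = 0.000267), and its second probe set rose by 1.11. Lilr4b, an immunoglobulin-like receptor of myeloid cells, went from 1401, 1025 and 882.6 to 2949, 2211 and 3759 (1.42 ± 0.20, limma adjusted p = 0.000253). Slfn4, a schlafen gene of myeloid cells, went from 381.5, 259.6 and 369.8 to 1492, 805.9 and 1139 (1.74 ± 0.31, limma adjusted p = 0.00211). General macrophage markers stayed within their array spread, with Csf1r at -0.04 ± 0.14 and Lyz2 at 0.03 ± 0.28. The macrophage list counted 1 rise and 0 falls among 16 genes tested, with a median of 0.23, while 2.17% of all genes tested rose. The summed signal of the 5 macrophage markers overlapped between the times, at 12024 to 15363 and 12621 to 17330.

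Of 20 tested genes of injured and cornifying epithelium 6 rose and 0 fell, with a median of 0.55. Krt6a, a keratin induced in wounded epithelium, gave 1358, 2846 and 555.0 at 16 h and 7312, 4478 and 4894 at 48 h (2.07 ± 0.50, limma adjusted p = 0.0166). The cornified envelope gene Sprr2b went from 912.8, 970.9 and 258.5 to 4488, 1889 and 2093 (2.09 ± 0.45, limma adjusted p = 0.00904). Sprr2f went from 328.2, 937.6 and 340.9 to 3474, 636.2 and 8479 (2.49 ± 0.56, limma adjusted p = 0.0118). The arrays of Krt6a and Sprr2b did not overlap, while 48 h replicate 2 of Sprr2f lay inside the 16 h range, and members of the Sprr2 family are near-identical copies that the probes may not separate. Krt6a missed the threshold without 16 h replicate 1 or 3 or 48 h replicate 1 (adjusted p from 0.0535 to 0.124), Sprr2b without 16 h replicate 3 or 48 h replicate 1 (0.0703 and 0.092), and Sprr2f without 16 h replicate 1 or 3 or 48 h replicate 1 or 3 (0.0612 to 0.0844).

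The tight junction gene Cldn7 rose in a narrow band, from 3501, 2938 and 3066 to 5630, 4433 and 4827 (0.64 ± 0.11, limma adjusted p = 0.00111). Emp1, an epithelial membrane protein, went from 3292, 4271 and 3079 to 7279, 5375 and 8045 (0.95 ± 0.17, limma adjusted p = 0.00205). Asprv1, a protease of the upper epidermis, went from 410.4, 553.1 and 466.8 to 1117, 966.6 and 954.6 (1.09 ± 0.20, limma adjusted p = 0.00229). None of these 3 overlapped between the times. Emp1 and Asprv1 are not on the cornified and injured epithelium list. The 6 that rose on it were Krt6a, Sprr2b, Sprr2f, Cldn7, Plaur and Sprr2i. That count of 6 was 1 without 16 h replicate 3 or 48 h replicate 1, 3 without 16 h replicate 1, 4 without 48 h replicate 3 and 0 with only the 6 arrays compared. Of 16 tested basal cell genes only Krt6a rose and 0 fell, with a median of 0.32, while 2.17% of all genes tested rose. A dimmer tested probe set of Krt6a did not pass (1.97, limma adjusted p = 0.113). Krt17 was at 0.59 by its brightest probe set without passing, and dimmer ones were at 0.87 (limma adjusted p = 0.0422) and -0.34. The basal keratin Krt14 was at the floor in all 6 arrays and Krt5 in all but 1, and the stem cell factor Trp63 was at 0.23 ± 0.21.

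Of 12 tested genes of matrix proteases and their inhibitors 4 rose and 0 fell, with a median of 0.30. Mmp3, stromelysin-1, which cleaves proteoglycans and activates other proteases, gave 113.4, 344.3 and 137.5 at 16 h and 1935, 2417 and 1036 at 48 h. It was at least 9.66-fold higher (3.27 ± 0.30, limma adjusted p = 1.16e-06). Timp1, an inhibitor of such proteases, went from 2575, 3613 and 2876 to 8293, 5346 and 7292 (1.20 ± 0.29, limma adjusted p = 0.0166). Plaur, the urokinase receptor, went from 587.1, 376.0 and 315.4 to 916.2, 656.1 and 1139 (1.10 ± 0.24, limma adjusted p = 0.0104). The times did not overlap in these genes. Timp1 missed the threshold without 16 h replicate 1 or 3 or 48 h replicate 1 (adjusted p from 0.0671 to 0.117) and Plaur without 16 h replicate 3 or 48 h replicate 1 or 3 (0.0509 to 0.0729). The fourth gene of this list that rose was Adam10, a membrane protease, from 1998, 2174 and 2207 to 2850, 2756 and 2749 (0.39 ± 0.10, limma adjusted p = 0.0309), which missed the threshold when any 1 of the 6 arrays was left out (0.0555 to 0.143). A dimmer tested probe set of Adam10 was at 0.41 without passing (limma adjusted p = 0.16). The count of 4 was 1 without 16 h replicate 3 or 48 h replicate 1 and 2 without 16 h replicate 1 or 48 h replicate 3. Among the 8 that did not pass, changes ran from -0.63 for Mmp14 to 0.96 for Mmp12.

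Col1a1, a chain of type I collagen, gave 32729, 37679 and 37428 at 16 h and 6480, 8493 and 6126 at 48 h. That was 5.15-fold lower (-2.37 ± 0.26, limma adjusted p = 9.23e-06), and its second tested probe set fell by 0.91. Col1a2, the other chain of this collagen, went from 16436, 22543 and 21418 to 4860, 5380 and 4664 (-2.01 ± 0.23, limma adjusted p = 1.1e-05). A dimmer probe set of Col1a2 went the other way without passing, at 0.29 (limma adjusted p = 0.14). Fmod, fibromodulin, which binds collagen fibrils, went from 1245, 996.9 and 1192 to 293.4, 475.7 and 96.8, at least 4.53-fold lower (-2.18 ± 0.37, limma adjusted p = 0.00111). Lum, a related proteoglycan, went from 9462, 7896 and 10152 to 2968, 5682 and 3819 (-1.19 ± 0.17, limma adjusted p = 0.000267). Sparc, a collagen-binding matrix protein, went from 9595, 12038 and 13219 to 4747, 6121 and 5205 (-1.11 ± 0.21, limma adjusted p = 0.00291). No array at 48 h reached the 16 h range in these 5 genes.

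Other matrix genes gave smaller changes or did not pass. Col3a1 went from 3970, 4680 and 5361 to 2226, 3381 and 2208 (-0.86 ± 0.22, limma adjusted p = 0.0276), and missed the threshold without 16 h replicate 2 or 3 or 48 h replicate 1 or 3 (adjusted p from 0.0677 to 0.173). Its dimmer tested probe sets were at -0.75 and -0.35 without passing. Dcn, decorin, one of the brightest matrix genes, gave 22203, 21049 and 20173 against 20568, 21516 and 14196 (-0.20 ± 0.12), and its arrays overlapped. Of 36 genes tested on the collagen and proteoglycan list 8 fell and 1 rose, with a median of -0.26. Col5a1 was at -0.26 by its brightest probe set without passing and at -1.32 by a dimmer one (limma adjusted p = 0.0307). The count of falls was 5 without 16 h replicate 3 or 48 h replicate 1 and 3 with only the 6 arrays compared. The 1 that rose was Fbln2, fibulin-2, at 0.78 (limma adjusted p = 0.0141), named after its value was seen. The summed signal of the 5 fibroblast markers went from 84801 to 94533 at 16 h to 31012 to 44451 at 48 h. All of these markers but Dcn are among the genes that fell, so the sum is no separate measure of fibroblast content. The part of fibroblast content in the fall was not tested.

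Bone matrix genes pointed the same way in fewer members. Omd, osteomodulin, went from 1052, 871.3 and 1291 to 244.7, 689.2 and 362.8 (-1.42 ± 0.29, limma adjusted p = 0.00545; 0.0617 without 48 h replicate 1). Dmp1, an osteocyte matrix protein, went from 705.4, 1113 and 479.5 to 191.3, 126.0 and 309.0 (-1.89 ± 0.49, limma adjusted p = 0.0262). It missed the threshold without 16 h replicate 1 or 2 or 48 h replicate 1 or 2 (adjusted p from 0.0761 to 0.117). Ibsp, bone sialoprotein, overlapped, with 5256 to 6771 at 16 h and 2232 to 8952 at 48 h. Of 12 genes tested on the bone list 2 fell and 0 rose, with a median of -0.29. Summed bone and cartilage markers gave 6258 to 7171 at 16 h and 3019 to 9226 at 48 h, so bone signal differed more among the arrays at 48 h than among those at 16 h.

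The deepest falls were in immunoglobulin genes of plasma cells. Ighm, the mu heavy chain, gave 1369, 455.7 and 3823 at 16 h and lay below the floor at 48 h, with 66.4, 57.7 and 63.1. It was at least 11.8-fold lower (-3.55 ± 0.59, limma adjusted p = 0.00111). Igha, the alpha heavy chain of mucosal antibody, went from 3258, 900.6 and 7504 to 258.2, 261.3 and 218.7 (-3.51 ± 0.58, limma adjusted p = 0.00111). Jchain, which joins antibodies into polymers, went from 1073, 442.9 and 2404 to 173.4, 159.1 and 178.0 (-2.62 ± 0.43, limma adjusted p = 0.00111). The light chain segment Igkv6-23 went from 3221, 792.1 and 7648 to 377.4, 496.9 and 388.5 (-2.69 ± 0.54, limma adjusted p = 0.00527). In all 4 genes 16 h replicate 3 was highest and replicate 2 lowest, while the 48 h arrays were close together.

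The 2 other tested probe sets assigned to Ighm were lower without passing, at -0.97 and -0.75, and immunoglobulin probes can bind more than 1 segment. The summed signal of the 4 plasma and B cell markers was 6214, 2120 and 14050 at 16 h and 878, 806 and 872 at 48 h. Igha, Ighm and Jchain are among these markers, so the sum is no separate measure. The low state was also that of 0 h, where Ighm gave 75.3, 69.9 and 79.2, while at 2 h it gave 780.9, 719.5 and 1054 and at 8 h 881.8, 943.3 and 216.5. Cd79a, the B cell receptor subunit, was dim and overlapped, with 319.6 to 513.2 at 16 h and 327.9 to 411.7 at 48 h. Of 7 genes tested on the immunoglobulin and B cell list 4 fell and the median was -2.62. All 4 passed without any 1 of the 6 arrays, and 0 passed when the spread was taken from those 6 arrays alone. The 1 that rose, Xbp1, a transcription factor that many secretory cells use too, went from 9776, 12686 and 10913 to 17916, 13815 and 18702 (0.59 ± 0.15, limma adjusted p = 0.026). It missed the threshold without 16 h replicate 1 or 3 or 48 h replicate 1 or 3 (adjusted p from 0.0865 to 0.149). The part of plasma cell content of the dissected pieces in these falls was not tested.

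The RNA of 2 chains of MHC class II, which presents antigen, was lower. H2-Aa gave 4353, 1874 and 2228 at 16 h and 942.7, 1355 and 977.8 at 48 h, with no overlap (-1.29 ± 0.23, limma adjusted p = 0.00211). H2-Ab1 went from 1838, 884.0 and 1143 to 521.8, 654.5 and 541.7 (-1.11 ± 0.25, limma adjusted p = 0.0133), and missed the threshold without 16 h replicate 1 (adjusted p = 0.0962) or 48 h replicate 1 (0.0852). In both genes 16 h replicate 1 was the highest of the 6 arrays. Cd74, the invariant chain, gave 9478, 5449 and 5828 against 3814, 5696 and 3306 and overlapped (-0.69 ± 0.22, limma adjusted p = 0.0818). All 7 genes tested on the list had negative changes, with a median of -0.43, and 2 fell, or 0 with only the 6 arrays compared. In the mutant-labelled arrays 2 genes of this list rose and 0 fell, with a median of 0.25. T cell markers Cd3e, Cd3d and Cd8a were at the floor in all 6 arrays.

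**Figure D2:**
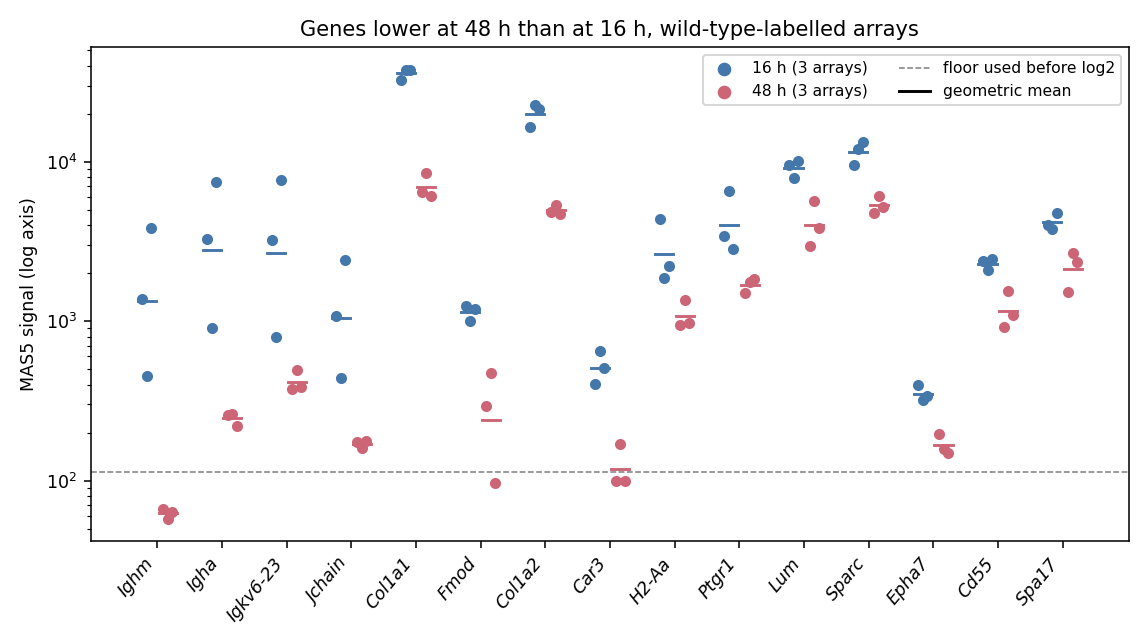
MAS5 signals (log axis) of the 15 genes with the largest falls among genes chosen for passing the threshold in all 6 leave-one-out fits and for having no overlap between the times, for each of the 3 wild-type-labelled arrays at 16 h and at 48 h. Bars are geometric means of the deposited signals and the dashed line is the floor of 113.7; the 16 h points of the 4 immunoglobulin genes are spread far apart, while those of Col1a1, from 32729 to 37679, lie close together.

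Of 11 tested genes of mature olfactory sensory neurons 5 fell, by 0.49 to 0.67 on the log2 scale, and the other 6 ranged from -0.52 for Nsg1 to -0.00 for Ncam1. Omp, the olfactory marker protein of mature neurons, gave 26269, 23187 and 23450 at 16 h and 16300, 17498 and 17923 at 48 h (-0.49 ± 0.11, 1.41-fold, limma adjusted p = 0.0103). Adcy3, the adenylyl cyclase of odour transduction, went from 5808, 5435 and 5346 to 2899, 3190 and 4532 (-0.67 ± 0.13, limma adjusted p = 0.00545). Cnga2, a subunit of the cation channel that cyclic AMP opens, went from 10271, 9453 and 8243 to 5128, 6943 and 7236 (-0.55 ± 0.15, limma adjusted p = 0.039). In each of these genes all arrays at 48 h lay below all at 16 h. Olfm1 (-0.58 ± 0.17) and Reep1 (-0.49 ± 0.14) also fell, with adjusted p of 0.0469 and 0.0486 by limma. A dimmer tested probe set of Cnga2 was at -0.48 without passing (limma adjusted p = 0.0842).

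These calls lay close to the threshold. Omp missed it without 16 h replicate 1 (-0.44, adjusted p = 0.0603) or 48 h replicate 1 (-0.45, adjusted p = 0.0749), and Adcy3 without 48 h replicate 1 (-0.54, adjusted p = 0.0628). Cnga2 missed it without 16 h replicate 1, 2 or 3 or 48 h replicate 1 (adjusted p from 0.0553 to 0.292), Reep1 without any of the arrays except 48 h replicate 3 (0.0665 to 0.291) and Olfm1 without any 1 of the 6 (0.0749 to 0.205). With the mutant-labelled 2 h arrays in the fit Omp had an adjusted p of 0.846. On this list 0 genes rose and the median was -0.49. The count of falls was 2 without the filter on dim probe sets, 1 with all 30 arrays, 3 with the replicate number as a block 0 with only the 6 arrays compared, and 0 to 4 when 1 of them was left out, with 0 without 48 h replicate 1. The summed signal of the 4 mature neuron markers on the array was 41583 to 47634 at 16 h and 27442 to 33093 at 48 h. All 4, Omp, Adcy3, Cnga2 and Olfm1, are among the genes that fell, so the sum is no separate measure.

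Genes of younger neurons and progenitors were mostly not past the threshold. Gap43, a growth cone protein of immature neurons, gave 7038, 8085 and 8484 at 16 h and 5905, 8598 and 7636 at 48 h (-0.11 ± 0.22). The immature neuron markers Stmn1, Stmn2, Tubb3 and Dcx had changes between 0.06 and 0.16. Of 25 tested immature neuron genes 1 fell and 0 rose, with a median of -0.06, while 2.53% of all genes tested fell. The 1 was Nrep, which went from 2954, 3128 and 3275 to 2033, 2003 and 2394 (-0.54 ± 0.12, limma adjusted p = 0.00893; 0.0633 without 48 h replicate 1). Sox4 was at 0.22 by its brightest probe set without passing and at 0.51 by a dimmer one (limma adjusted p = 0.0436). None of 16 progenitor genes passed in limma and 3 had an unadjusted p under 0.05. Their median was -0.03, and changes ran from -0.37 for the Notch target Hes1 to 0.46 for Nes, which encodes nestin. Mki67, a protein of dividing cells, was at 0.04 ± 0.24. Of 37 tested genes of cell cycle and DNA replication 1 fell, Cks2, from 2033, 1890 and 2303 to 1464, 1363 and 1424 (-0.55 ± 0.14, limma adjusted p = 0.0273). Cks2 missed the threshold without 16 h replicate 1 or 3 or any of the 48 h arrays (adjusted p from 0.0581 to 0.134). A fall in 1 of 37 genes does not stand apart from the 2.53% of all genes tested.

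On the list of supporting cell genes 1 fell, and on that of ciliated cell genes 3 fell. Fmo1, a flavin monooxygenase that oxidises xenobiotics, went from 5384, 4806 and 5967 to 2440, 3591 and 3289 without overlap (-0.81 ± 0.12, limma adjusted p = 0.000451). It was the 1 gene that fell of 14 tested on the sustentacular list, whose median was -0.09, while 2.53% of all genes tested fell. The sustentacular markers Krt8 (-0.06) and Krt18 (0.05) did not pass. Spa17, a protein of cilia and sperm tails, went from 4032, 3760 and 4760 to 1512, 2691 and 2352 (-0.97 ± 0.15, limma adjusted p = 0.000444), and the centrin gene Cetn2 from 2160, 2067 and 2339 to 1192, 1738 and 1568 (-0.56 ± 0.11, limma adjusted p = 0.00316). The tektin gene Tekt1 went from 977.8, 883.4 and 1101 to 434.7, 626.5 and 880.7 (-0.66 ± 0.18, limma adjusted p = 0.0333) and missed the threshold without 16 h replicate 1 or 3 or 48 h replicate 1 or 2 (adjusted p from 0.0622 to 0.291). Without 48 h replicate 1 its change was -0.40. Of 15 genes tested on the ciliated cell list 3 fell and 0 rose, with a median of -0.18. Foxj1, the master regulator of motile cilia, overlapped, with 3526 to 4620 at 16 h and 2548 to 5308 at 48 h.

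**Figure D3:**
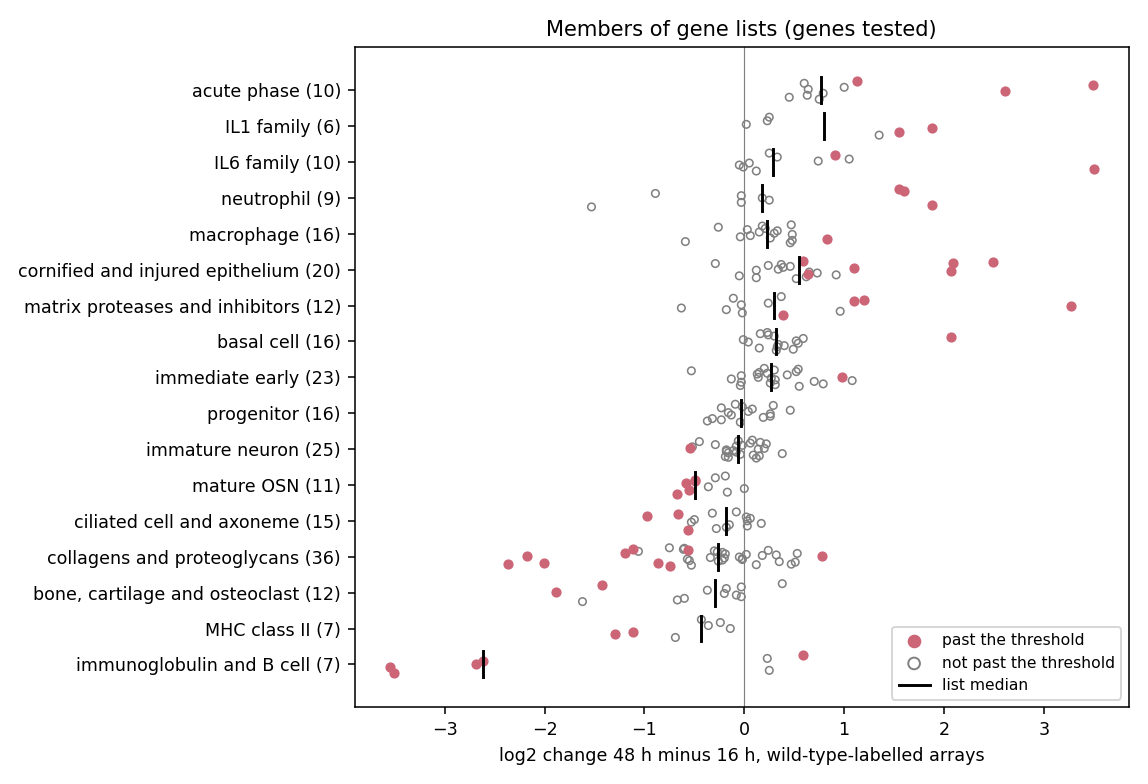
Log2 change (48 h minus 16 h, arrays with the wild type label) of each tested member (points) of 17 gene lists, with the number tested in brackets; filled points passed the limma threshold and bars are list medians. Acute phase members all lie right of 0 and MHC class II members all lie left of it, while progenitor members lie on both sides.

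The mutant-labelled arrays cover the same interval and share no array with the wild-type-labelled ones. In them 501 of 5383 genes changed, 9.31%, or by probe set 625 (8.99%; 279 higher, 4.01%, and 346 lower, 4.98%). Among the genes 236 rose, 4.38%, and 265 fell, 4.92%. Of the 117 genes that rose under the wild type label 21 also rose there, 17.9% of the first list and 8.9% of the second, and 3 fell. Of the 136 that fell 51 also fell there, 37.5% and 19.2% of the lists, and 1 rose. The median change in the mutant-labelled arrays was 0.17 for the first set and -0.37 for the second. The difference between the 2 intervals passed its own test in 51 genes, 0.947% of those tested (69 probe sets, 0.993%), and 27 of these had changed in the wild-type-labelled arrays.

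Several inflammatory genes were among the 27. Cxcl2 stayed at or near the floor in the mutant-labelled arrays, with 96.9, 78.1 and 44.0 at 16 h and 74.9, 108.9 and 204.4 at 48 h. Il6 gave 48.2, 167.8 and 62.3 against 7.2, 8.7 and 136.7 there, and Saa3 285.7, 101.0 and 193.1 against 85.4, 131.3 and 223.8. The mutant-minus-wild-type difference of the change was -4.22 ± 0.66 for Cxcl2, -3.59 ± 0.48 for Il6 and -3.79 ± 0.49 for Saa3, with limma adjusted p of 0.00167, 0.000288 and 0.000193. These sizes depend on the floor, since 5 of the 6 mutant-labelled arrays lay below it for Cxcl2, 4 for Il6 and 2 for Saa3, as did wild-type-labelled 16 h arrays of Cxcl2 and Il6. For Il1rn, which fell in the mutant-labelled arrays by at least 0.87 on the log2 scale to values below the floor, it was -2.75 ± 0.35 (limma adjusted p = 0.000193). Il1a gave 87.5, 56.4 and 67.9 at 16 h and 244.4, 254.0 and 185.1 at 48 h there, higher in each array at the later time under both labels.

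Falls were divided between those found under both labels and those that differed. Ighm stayed high in the mutant-labelled arrays, with 1186, 1439 and 3061 at 16 h and 2076, 4055 and 1584 at 48 h, a difference of at least 4.01 ± 0.84, since the wild-type-labelled arrays at 48 h lay below the floor (limma adjusted p = 0.0198). Col1a1 gave 34771, 38085 and 41755 against 20576, 40391 and 14281, a difference of 1.63 ± 0.37 (limma adjusted p = 0.0301). Fmo1 rose there by 0.40 where it had fallen, a difference of 1.21 ± 0.17 (limma adjusted p = 0.000658). Omp instead fell under both labels, in the mutant-labelled arrays by 0.70, from 35962, 40155 and 36190 to 23806, 19230 and 26773. The difference for Omp was -0.20 ± 0.15 and did not pass (limma adjusted p = 0.637). Adcy3 (-1.03), Cnga2 (-0.72), Olfm1 (-1.35), Cd55 (-0.69), Epha7 (-1.03) and Ptgr1 (-1.14) fell in the mutant-labelled arrays too, as did Pcp4l1 (-1.10) and Vsnl1 (-1.28). For none of these did the difference pass (adjusted p from 0.126 to 0.965).

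**Figure D4:**
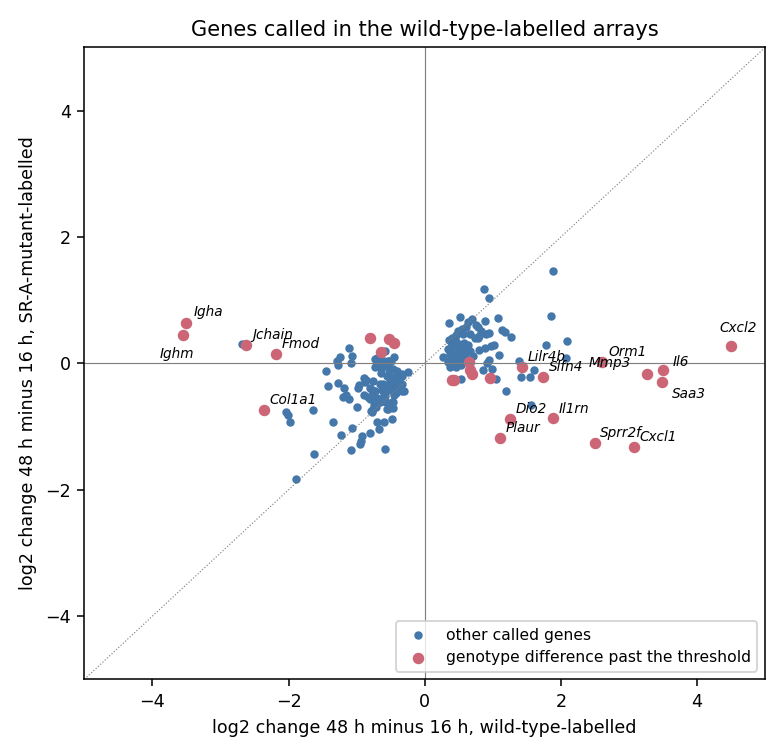
Log2 change from 16 h to 48 h in the wild-type-labelled arrays (horizontal) against that in the mutant-labelled arrays (vertical) for the 253 genes called in the former; large points are the 27 genes whose difference between labels passed the limma threshold, and those changed by over 1 are named. Cxcl2 lies at 4.50 and 0.28, Cxcl1 at 3.07 and -1.32, and Ighm at -3.55 and 0.45.

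**Figure D5:**
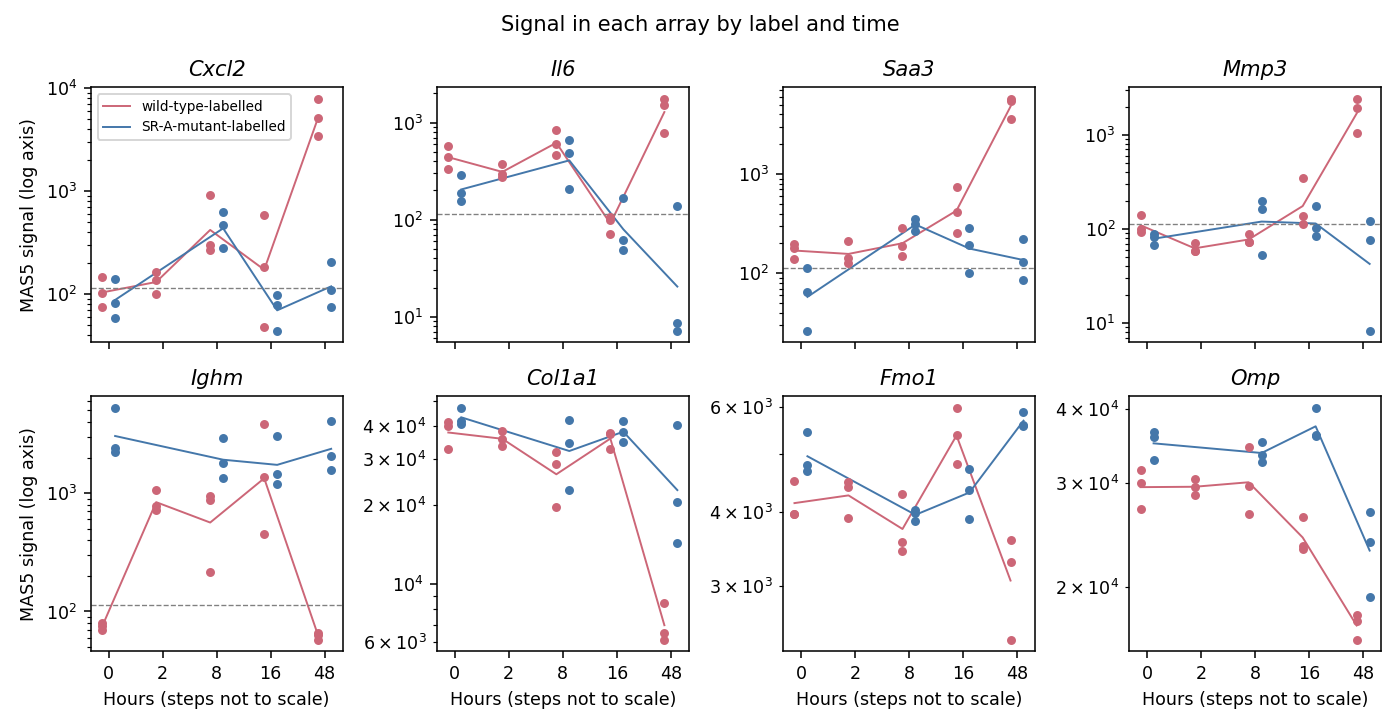
MAS5 signal (log axis) of 8 genes in each array by hour, wild-type-labelled at 0, 2, 8, 16 and 48 h and mutant-labelled at 0, 8, 16 and 48 h; lines join geometric means of 3 arrays and the dashed line, where drawn, is the floor of 113.7. Cxcl2, Saa3 and Mmp3 are highest in the wild-type-labelled arrays at 48 h, and Ighm in those arrays is below the floor at 0 h and at 48 h.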

How the data were processed

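Microdissected olfactory epithelium was measured on 30 Affymetrix MG-U74Av2 arrays, grouped by the genotype and time in their titles. The authors deposited linear MAS5 signal intensity per probe set, per the labels and the submitters' processing notes, and the values of all arrays share nearly the same trimmed mean. The software version was not given in the sources used here. Of 12488 probe sets, 66 controls were left out and 10833 carry 1 gene symbol in the platform annotation, 396 several and 1193 none.

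Intensities were raised to the pooled 25th percentile (113.7) and converted to log2. Probe sets above the pooled median of 572 in at least 3 of 27 arrays were kept, which left 6950. The 3 SR-A mutant 2 h arrays stayed out because their Gapdh 3'/5' difference reached 5.59 (log2). Group means of 9 groups were fitted with limma 3.58.1 in R 4.3.3, with Benjamini-Hochberg adjustment and a threshold of 0.05. On simulated data for the wild type comparison, over 6950 probe sets, 91% of 2-fold and 99% of 4-fold changes were recovered and 11 unchanged probe sets were called. The simulation drew independent normal noise for each probe set, with no effect shared across an array and the same spread in each group. Those shares therefore do not measure what the real arrays could detect. The number of arrays limits the precision.

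Named genes were the 15 largest rises and 15 largest falls that passed in all 6 leave-one-out fits with no overlap between times, up to 5 members of each list past the threshold, the 10 genes with the smallest p of the genotype difference, and all members of the marker lists and of 8 fixed lists. Ccl2, Ccl3, Lcn2, Cd74, Fbln2 and other genes outside this rule were named after their values were seen. The gene lists and the comparison were chosen with earlier results of these data known. Replicate numbers did not pair the samples. Alternatives were another pseudocount, no filter, quantile normalization, a replicate block, robust moderation, other sets of arrays and each array left out.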

Additional observations from a re-analysis of the deposited data

Results flagged for a closer look

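The change from 16 h to 48 h differed between the 2 genotype labels in 22 of the named genes, by limma's test of the difference itself. Some genes were named because their p in this same test was among the smallest. Others were named for large changes in the wild-type-labelled arrays, which also enter the difference. The count of 22 therefore does not measure how common such differences are. Over all 5383 genes tested the difference passed in 51, 0.947%. Values are log2 differences of the change, mutant-labelled minus wild-type-labelled. Among genes that rose in the wild-type-labelled arrays they were Cxcl1 (-4.39), Cxcl2 (-4.22), Saa3 (-3.79), Sprr2f (-3.75), Il6 (-3.59), Mmp3 (-3.45), Il1rn (-2.75), Orm1 (-2.59), Plaur (-2.29), Dio2 (-2.13), Slfn4 (-1.96), Lilr4b (-1.48), Emp1 (-1.19) and Cldn7 (-0.63). Among genes that fell there they were Igha (4.15), Ighm (4.01), Jchain (2.92), Fmod (2.33), Col1a1 (1.63) and Fmo1 (1.21). The sizes for Cxcl1, Cxcl2, Saa3, Sprr2f, Il6, Mmp3, Il1rn, Orm1, Plaur, Ighm and Fmod depend on the floor, since some of their arrays lay below it.

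Calb1, a calcium-binding protein, was below the floor in all 6 wild-type-labelled arrays at 16 h and 48 h. In the mutant-labelled arrays it gave 19.0, 23.3 and 99.5 at 16 h and 538.1, 710.7 and 552.8 at 48 h, so the fitted difference of 2.39 was set by the floor and is no exact size. The wild-type-labelled arrays at 0 h had given 938.4, 1412 and 1415. Pkn2, a protein kinase, was at -0.08 ± 0.08 in the wild-type-labelled arrays and rose in the mutant-labelled ones from 707.9, 600.2 and 671.9 to 1090, 1008 and 946.8, a difference of 0.70. Msr1 did not check the labels, so the direction of these differences rests on the labels alone.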

How the results depend on the processing

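The wild type comparison called 325 probe sets as reported, 309 without the filter, 325 with log2(signal + 16), 378 after quantile normalization, 342 with robust moderation, 254 with all 30 arrays and 283 with the 15 wild type arrays. With only the 6 arrays compared there were 48, of which 43 were among the 325. The mutant comparison went from 625 to 57 with its own 6 arrays, and the genotype difference from 69 to 14 with the 12 arrays of both times. Those fits use fewer arrays to estimate the spread. Leaving out 1 array gave 89 to 336 probe sets in the wild type comparison, 301 to 895 in the mutant one and 19 to 230 for the difference, the last lowest without wild type 48 h replicate 3 and highest without 48 h replicate 2. With the replicate number as a block the counts were 308, 585 and 74. Same-numbered arrays of the wild type groups had deviations correlated at 0.13, -0.06 and 0.14, so the numbers do not pair them.

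No direction of the 81 named genes past the threshold reversed in any of these fits. Most of the fits could not have reversed one. Those that changed only the filter, the block, the moderation or the other arrays kept the same group means. Leaving out 1 array cannot reverse a gene whose times do not overlap. Calls lost numbered 20 without the filter, 1 each with log2(signal + 16), quantile normalization and robust moderation, 4 with the block, 14 with all 30 arrays, 13 with the 15 wild type arrays, 63 with the 6 arrays and 12 to 46 when 1 array was left out. Of the 309 calls without the filter 243 were among the 325, and the rest include dim genes that the filter had left untested. Changes of probe sets near the floor depend on it.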

Other observations

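Several gene groups outside inflammation, matrix and neurons had few or no members past the threshold. Of 62 tested genes of oxidative phosphorylation 48 had negative changes, with a median of -0.13 against 0.00 over all genes. Ndufs4, a complex I subunit, was the 1 that fell (-0.46 ± 0.13, limma adjusted p = 0.0487), while 2.53% of all genes tested fell. Ndufs4 missed the threshold without any 1 of the arrays except 48 h replicate 2 (adjusted p from 0.0862 to 0.231). None of 32 proteasome genes passed in limma, 5 having an unadjusted p under 0.05, and none of 25 apoptosis genes did, with 6. Of 11 cholesterol synthesis genes 10 were negative with a median of -0.22 and none passed, with 3 at an unadjusted p under 0.05.

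Of 10 genes tested on the glia and myelin list 2 rose and 0 fell, while 2.17% of all genes tested rose. Apod, apolipoprotein D, went from 17269, 25067 and 17859 to 33509, 27384 and 26399 (0.55 ± 0.13, limma adjusted p = 0.0166), and the neuregulin receptor gene Erbb3 from 3416, 3767 and 3855 to 6560, 4861 and 4882 (0.55 ± 0.15, limma adjusted p = 0.0384). Both also rose in the mutant-labelled arrays, by 0.49 and 0.54. Apod missed the threshold without 16 h replicate 1 or 3 or 48 h replicate 1 (adjusted p from 0.0976 to 0.144) and Erbb3 without any 16 h array or 48 h replicate 1 (0.0726 to 0.277).

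Agr2, a disulfide isomerase of mucus-secreting cells, went from 11232, 16498 and 18636 to 28572, 28587 and 20286 (0.75 ± 0.17, limma adjusted p = 0.0122) and missed the threshold without 16 h replicate 1 or 48 h replicate 1 (0.0905 and 0.0949). Hspa4, a heat shock protein gene, fell by its brightest probe set (-0.88 ± 0.25, limma adjusted p = 0.0422), while its 3 other tested probe sets were positive, at 0.36 to 0.58, without passing. That fall missed the threshold without 16 h replicate 2 or 3 or 48 h replicate 1 or 3 (adjusted p from 0.0726 to 0.242). Among the 51 changed genes with more than 1 tested probe set, 42 had every one of the same sign and 9 did not.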
